A study of Mus musculus with 62 samples.

Results

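Cortical projection neurons are the excitatory pyramidal cells that send axons out of a cortical area, and 9 genes that mark them or their layers are described here. They were taken as a list of Entrez gene identifiers by name: Slc17a7 and Neurod6 (pyramidal cells of several layers), Cux1, Cux2 and Rorb (upper layers), Fezf2 and Etv1 (layer 5), and Tle4 and Nr4a2 (layer 6). All 9 were found among the 18149 genes listed in the prefrontal cortex (PFC) or striatum tables, and all 9 passed the filter on low counts in every comparison. The RNA came from punches of brain tissue taken from female mice of the inbred C57BL/6 strain after oral dosing with a mixture of polychlorinated biphenyls (PCBs, persistent industrial chemicals) called the MARBLES mixture. Each region was represented by 21 libraries: 4 from the vehicle group, 5 from the 0.1 mg/kg group, and 6 from each of the 1 and 6 mg/kg groups. The mice carried no labelled genetic change, and all groups had the same sex and strain. Age, dosing schedule and the vehicle are not given in the sources used here. Each library is named below by the number in its title, called its animal number, which occurs once in each region; the labels do not state that equal numbers mark the same mouse.

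Projection neurons of the cortex are born in sequence and settle in layers that differ in their targets. Upper layer neurons connect cortical areas, many layer 5 neurons project to the brainstem, spinal cord and striatum, and many layer 6 neurons project to the thalamus. The striatum lies under the cortex and is made up mostly of inhibitory projection neurons; it receives glutamatergic axons from the cortex, whose cell bodies lie outside it. Slc17a7 encodes VGLUT1, the transporter that loads glutamate into synaptic vesicles in most cortical pyramidal cells. The other 8 members encode regulators of transcription.

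By RefSeq in the GRCm38.p6 assembly, which shares its coordinates with the mm10 build named in the submitters' processing notes, Slc17a7 (Entrez 72961) lies at chr7:45163921-45176139 and Neurod6 (Entrez 11922) at chr6:55677818-55681263. Cux1 (Entrez 13047) lies at chr5:136248135-136567590 and its paralog Cux2 (Entrez 13048) at chr5:121857962-122050415. Rorb (Entrez 225998) lies at chr19:18930609-19111196, Fezf2 (Entrez 54713) at chr14:12338992-12346803 and Etv1 (Entrez 14009) at chr12:38780082-38870483. Tle4 (Entrez 21888) lies at chr19:14448072-14598183 and Nr4a2 (Entrez 18227) at chr2:57106830-57124003.

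The promoters below are shown because Slc17a7, Neurod6, Fezf2 and Nr4a2 varied together from one striatum library to the next, whereas Cux1 and Tle4 stayed level. Each is the 250 bases before an annotated start site, written 5′ to 3′ on the gene's strand, from RefSeq (GRCm38.p6). Capitals mark the E-box CANNTG, the core element bound by basic helix-loop-helix proteins, the class that holds Neurod6. The windows lie at chr7:45163671-45163920 (plus strand) for Slc17a7, chr6:55681264-55681513 (minus) for Neurod6, chr14:12345866-12346115 (minus) for Fezf2, chr2:57124004-57124253 (minus) for Nr4a2, chr5:136565982-136566231 (minus) for Cux1 and chr19:14598184-14598433 (minus) for Tle4.
Slc17a7: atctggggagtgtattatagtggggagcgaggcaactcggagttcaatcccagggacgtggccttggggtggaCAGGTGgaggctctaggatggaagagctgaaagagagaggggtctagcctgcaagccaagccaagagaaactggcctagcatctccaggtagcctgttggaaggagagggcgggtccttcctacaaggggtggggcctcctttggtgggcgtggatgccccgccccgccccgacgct
Neurod6: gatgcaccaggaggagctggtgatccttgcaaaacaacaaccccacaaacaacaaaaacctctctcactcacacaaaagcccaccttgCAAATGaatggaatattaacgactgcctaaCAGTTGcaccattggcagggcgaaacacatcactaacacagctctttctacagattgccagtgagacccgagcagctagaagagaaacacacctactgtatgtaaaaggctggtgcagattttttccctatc
Fezf2: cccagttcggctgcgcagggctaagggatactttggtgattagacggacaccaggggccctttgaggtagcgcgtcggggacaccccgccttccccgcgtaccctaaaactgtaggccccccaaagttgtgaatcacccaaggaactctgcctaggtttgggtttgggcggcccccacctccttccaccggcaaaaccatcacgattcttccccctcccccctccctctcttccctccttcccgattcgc
Nr4a2: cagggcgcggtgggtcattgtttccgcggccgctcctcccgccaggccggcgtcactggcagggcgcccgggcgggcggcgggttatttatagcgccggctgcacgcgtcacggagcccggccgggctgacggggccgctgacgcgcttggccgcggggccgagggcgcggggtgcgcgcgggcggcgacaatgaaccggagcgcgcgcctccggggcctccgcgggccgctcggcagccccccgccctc
Cux1: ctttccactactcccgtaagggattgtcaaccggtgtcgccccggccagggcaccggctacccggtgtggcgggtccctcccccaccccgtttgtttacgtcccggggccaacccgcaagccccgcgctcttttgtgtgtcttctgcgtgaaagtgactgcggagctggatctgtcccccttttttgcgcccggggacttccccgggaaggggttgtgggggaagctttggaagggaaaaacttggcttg
Tle4: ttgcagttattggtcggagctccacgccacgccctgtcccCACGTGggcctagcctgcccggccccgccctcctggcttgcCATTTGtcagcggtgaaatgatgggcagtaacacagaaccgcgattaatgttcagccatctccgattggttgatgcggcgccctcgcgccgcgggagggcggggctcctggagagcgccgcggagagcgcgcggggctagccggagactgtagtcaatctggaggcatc
The E-box stood 1 time in the Slc17a7 window, 2 times each in the Neurod6 and Tle4 windows shown, and 0 times in those of Fezf2, Nr4a2 and Cux1. Another annotated Tle4 window, at chr19:14597214-14597463 (minus strand), held 0. Any link of these motifs to the levels or to the joint variation was not tested. Read on both strands, the E-box occurs in 66.2% of all 32851 RefSeq windows of this length. The NeuroD-type form CAGATG, a subset of the E-box, occurs in 14.4% of all windows and in none of the 6 shown. It was in 1 of the 2 windows of Cux2 and in 1 of the 2 of Etv1. The element AAAGGTCA, bound by Nr4a receptors, occurs in 1.34% of all windows and in none of the 13 windows of the 9 genes. Base composition differed, from 46% G and C in the Neurod6 window to 80% in that of Nr4a2, with Slc17a7 and Fezf2 both at 61.2%, Cux1 at 62.8% and Tle4 at 65.2%.

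Total counts per library ranged from 8722232 to 12135200 in the PFC and from 8283032 to 12019651 in the striatum. No pair of libraries in a group agreed within sampling noise. Tissue labels were compared with 12 markers of striatal projection neurons: 11 passed the test as higher in striatum than in PFC in vehicle mice and 0 as lower. These markers were nonetheless well above 0 in the PFC libraries, where they summed to between 1228 and 3923 CPM (counts scaled to 1 fixed library size by edgeR's TMM method, the level used throughout), against 3273 to 7593 CPM in the striatum. All 7 oligodendrocyte markers also passed as higher in striatum. Bulk punches cannot tell fewer cells of a type from less RNA per cell.

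Some libraries stand apart from the rest, chosen as such after their values were seen. In striatum they are those of animal 8 (vehicle) and of animals 46 and 50 (both 1 mg/kg). Slc17a7 was at 892, 663 and 1324 CPM in these 3 libraries, and at 40.8 to 465.8 CPM in the other 18. Neurod6 was at 30.7, 33.0 and 41.3 CPM in them, against 0.647 to 11.97 CPM, and Fezf2 at 34.0, 18.0 and 41.2 CPM, against 2.18 to 7.78 CPM. The striatal projection neuron markers in the same libraries summed to 3609, 3836 and 3273 CPM, against 3616 to 7593 CPM in the other 18, so 2 of the 3 lay below all others. In the PFC, the 6 mg/kg library of animal 53 was the lowest of all 21 for Slc17a7, Neurod6, Fezf2 and Nr4a2, and its sum of striatal projection neuron markers was 3759 CPM, near the top of the PFC range. The part of punch composition in these results was not tested.

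In the vehicle PFC, Slc17a7 was by far the most abundant of the 9 per unit of transcript length. Its median was 563 CPM per kilobase (the range over 4 libraries was 493.5 to 611). Nr4a2 followed at 33.0, Neurod6 at 25.03 and Tle4 at 19.7, then Cux2 at 11.1, Fezf2 at 10.8, Etv1 at 8.67 and Cux1 at 7.73, with Rorb the lowest at 3.99 CPM per kilobase. Neighbours in this order were separated by non-overlapping libraries at only 3 steps: Slc17a7 above Nr4a2, Tle4 above Cux2, and Cux1 above Rorb. In the vehicle striatum, Slc17a7 still had the highest median, 93.6 CPM per kilobase, but its 4 libraries ran from 14.7 to 289.7 and overlapped those of Tle4, with a median of 24.8. Below them stood Cux1 at 6.59, Etv1 at 6.56, Cux2 at 5.90, Nr4a2 at 4.12, Fezf2 at 2.84, Neurod6 at 2.31 and Rorb at 1.94 CPM per kilobase. The only step without overlap there was Tle4 above Cux1.

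The PFC levels of the pan-pyramidal genes are given next as CPM without the length scaling. Slc17a7 averaged 1718 ± 168 in the vehicle group (SD, n = 4) and 1713 ± 193 in the 0.1 mg/kg group (n = 5). Its mean was 1619.8 ± 214 in the 1 mg/kg group (n = 6) and 1416 ± 194 in the 6 mg/kg group (n = 6). Neurod6 averaged 54.9 ± 10.4, 57.9 ± 11.9, 56.4 ± 4.42 and 54.8 ± 16.6 in the same order. The group means of Slc17a7 thus ended lowest at 6 mg/kg, and those of Neurod6 differed by less than their SDs. Single Neurod6 libraries at 6 mg/kg ran from 26.6 to 78.4 CPM.

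Among the upper layer genes, Cux2, a homeobox factor of layers 2 to 4, had a vehicle mean of 101 ± 19.9 CPM (SD, n = 4) and a 6 mg/kg mean of 92.2 ± 10.4 CPM (n = 6). Cux1, its paralog, averaged 98.4 ± 12.6 and 100.2 ± 8.22 CPM. Rorb, a nuclear receptor of layer 4 neurons, averaged 35.97 ± 9.09 and 43.8 ± 4.77 CPM. In each of the 3 genes the libraries at 0.1 and 1 mg/kg overlapped both groups.

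Of the deep layer genes in PFC, Fezf2, which directs the fate of subcerebral projection neurons, had a vehicle mean of 26.8 ± 4.65 CPM (SD, n = 4) and a 6 mg/kg mean of 22.7 ± 4.93 CPM (n = 6). Etv1, an ETS factor, averaged 57.04 ± 6.51 and 55.03 ± 4.88 CPM. Tle4, a corepressor of layer 6 corticothalamic neurons, averaged 89.2 ± 6.72 CPM in the vehicle group. Its means were 75.9 ± 10.1 CPM in the 0.1 mg/kg group (n = 5), 78.4 ± 10.4 in the 1 mg/kg group (n = 6) and 94.97 ± 11.3 in the 6 mg/kg group. Its 2 lower dose groups had lower means than the vehicle group, and the libraries overlapped. Nr4a2, an orphan nuclear receptor of the deepest cortical layer and the claustrum, averaged 115 ± 19.2 and 93.7 ± 25.6 CPM in vehicle and at 6 mg/kg.

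**Figure D1:**
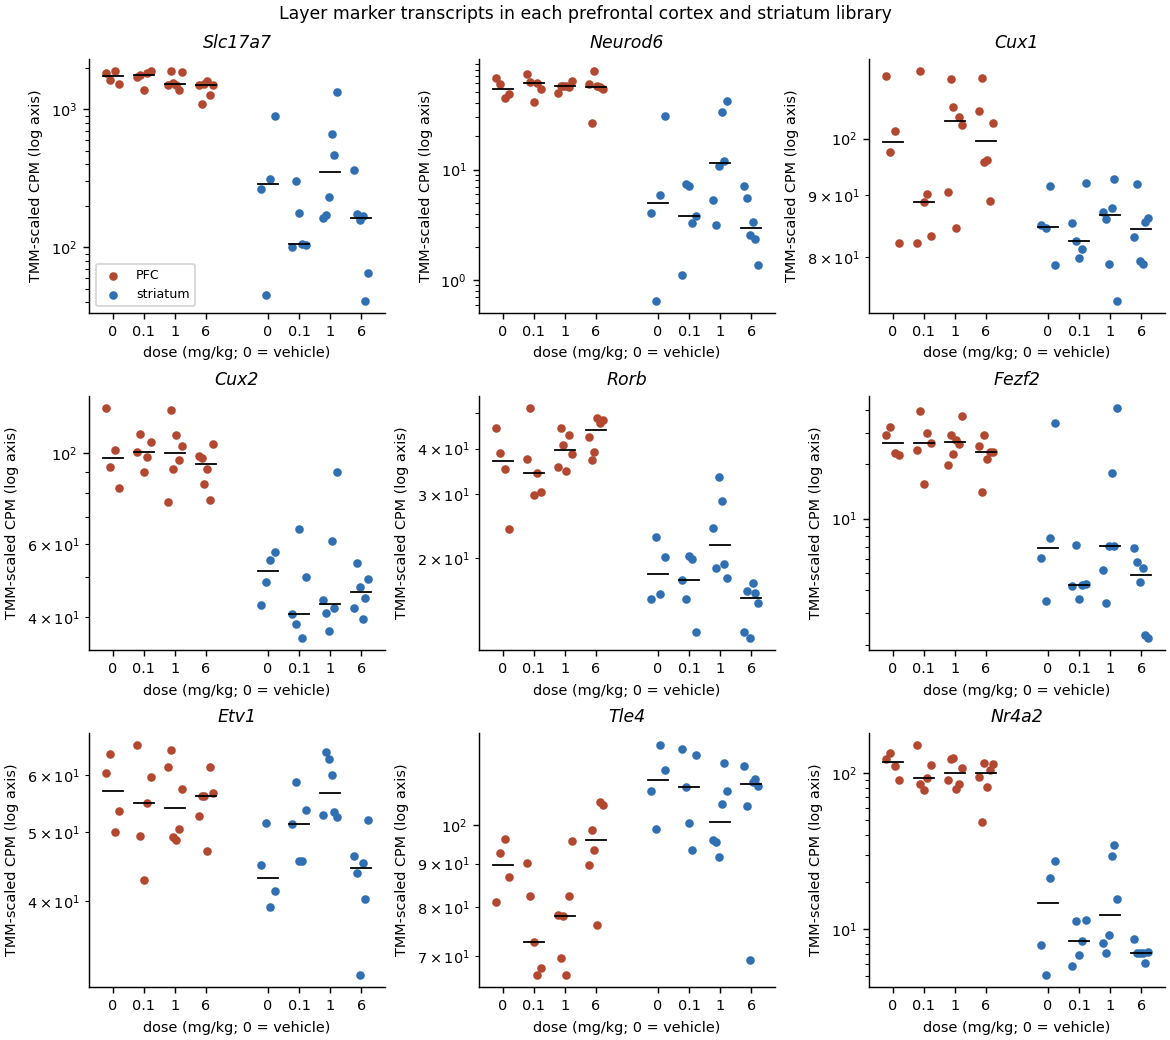
Level of each of the 9 layer markers in every PFC (red) and striatum (blue) library, by dose on the x axis (mg/kg, 0 is vehicle), as CPM after TMM scaling (edgeR's library-size correction) on a log y axis; each point is 1 library and each bar a group median. Slc17a7 in striatum runs from 40.8 to 1324 CPM while Cux1 there stays between 73.7 and 92.6 CPM, and Tle4 lies mostly higher in striatum than in PFC.

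Between the regions, 6 of the 9 markers were lower in striatum than in PFC of vehicle mice by edgeR's quasi-likelihood test at an adjusted p under 0.05: Nr4a2, Cux2, Rorb, Neurod6, Slc17a7 and Etv1. None passed as higher. Of all 15424 genes tested, 21.6% passed in either direction, 11.1% as lower and 10.5% as higher in striatum. At least a 4-fold lower level together with a passing p was met by 3 of the 9 (Nr4a2, Neurod6 and Slc17a7) and by 0.603% of all genes. The median log2 difference was -0.99 over the 9 markers and 0.01 over all genes tested. At an unadjusted p under 0.05, 9 of the 9 and 32.3% of all genes differed.

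Nr4a2 had the largest difference with all libraries included; without animals 8, 46 and 50 it was that of Neurod6. Its vehicle libraries held 124, 135, 112 and 90.4 CPM in PFC and 7.96, 5.09, 21.4 and 27.3 CPM in striatum (animals 3, 4, 7 and 8), with no overlap between regions. The log2 difference was -2.91 (SE 0.400, edgeR adjusted p 2.03e-06), 7.50-fold lower in striatum. Neurod6, a neuronal differentiation factor of cortical excitatory cells, held 67.4, 59.3, 44.5 and 48.3 CPM in PFC and 4.07, 0.647, 5.86 and 30.7 CPM in striatum. The regions do not overlap either, although animal 8 in striatum came close to the lowest PFC library. The log2 difference was -2.42 (SE 0.604, edgeR adjusted p 0.00321).

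Slc17a7 held 1829, 1642, 1883 and 1519.8 CPM in vehicle PFC, and 263, 45.3, 313 and 892 CPM in striatum. Its log2 difference was -2.18 (SE 0.602, edgeR adjusted p 0.00754), 4.54-fold lower in striatum. For Slc17a7 the adjusted p was 0.0536 without animal 3 and 0.110 in a fit of the 8 vehicle libraries alone, and that of Neurod6 was 0.104 in the latter fit.

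The upper layer factors Cux2 and Rorb were both about 2-fold lower in striatum. Cux2 differed by a log2 value of -0.99 (SE 0.191, edgeR adjusted p 0.000152) and Rorb by -0.95 (SE 0.187, edgeR adjusted p 0.000183). In both genes the highest of the 4 vehicle striatum libraries (57.4 CPM for Cux2, 22.8 for Rorb) lay below the lowest vehicle PFC library (82.5 and 24.02 CPM). Cux1 did not pass, with a log2 difference of -0.21 (SE 0.098, edgeR adjusted p 0.123), and its vehicle libraries overlapped between regions (82.1 to 113 CPM in PFC, 78.8 to 91.5 in striatum).

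The deep layer markers were split. Etv1 passed with a small log2 difference of -0.37 (SE 0.128, edgeR adjusted p 0.0335), a call that was lost on leaving out any 1 vehicle animal (adjusted p 0.0831 to 0.148). Tle4 was the only member with a positive difference, 0.33 on the log2 scale (SE 0.128, edgeR adjusted p 0.0573), and its vehicle libraries did not overlap, at 81.0 to 96.3 CPM in PFC and 98.9 to 124 in striatum. Tle4 did not pass here and passed in 6 of the other fits tried, among them DESeq2 (adjusted p 0.0434). Fezf2 did not pass either, at -1.07 (SE 0.518, edgeR adjusted p 0.148), but did with the animal number as a replicate block, as given below. Its striatum value in vehicle animal 8, 34.0 CPM, was above all 4 vehicle PFC libraries (22.6 to 32.1 CPM), and the other 3 striatum libraries held 6.02, 3.51 and 7.78 CPM. Without animals 8, 46 and 50, the Fezf2 difference was -2.29 and passed (edgeR adjusted p 2.88e-06), that of Etv1 was -0.36 and did not (edgeR adjusted p 0.0917), and 6 of the 9 again passed. There Neurod6 was at -4.02, Nr4a2 at -3.43 and Slc17a7 at -3.11 on the log2 scale. These libraries were set apart after their high Slc17a7, Neurod6 and Fezf2 were seen. Larger differences and smaller p-values of these genes without them follow from that choice and are no further evidence.

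Across all 21 animal numbers, the striatum level was set against the PFC level of the same number. Nr4a2 in striatum was at a median of 8.97% of its PFC level (3.75% to 40.5%), Neurod6 at 10.9% (1.09% to 65.8%) and Slc17a7 at 12.9% (2.76% to 70.9%). Fezf2 was at a median of 23.2%, with a range from 9.35% to 150.5% and 2 numbers above 100%. Rorb and Cux2 were at medians of 44.2% and 47.0%, below 100% in 21 of 21. Cux1 at 86.7% and Etv1 at 88.0% straddled 100%, with 3 and 5 numbers above it. Tle4, at a median of 133.7%, was above 100% in 20 of 21. So the members differ among themselves both in the size of the regional difference and in how evenly it was met from number to number.

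**Figure D2:**
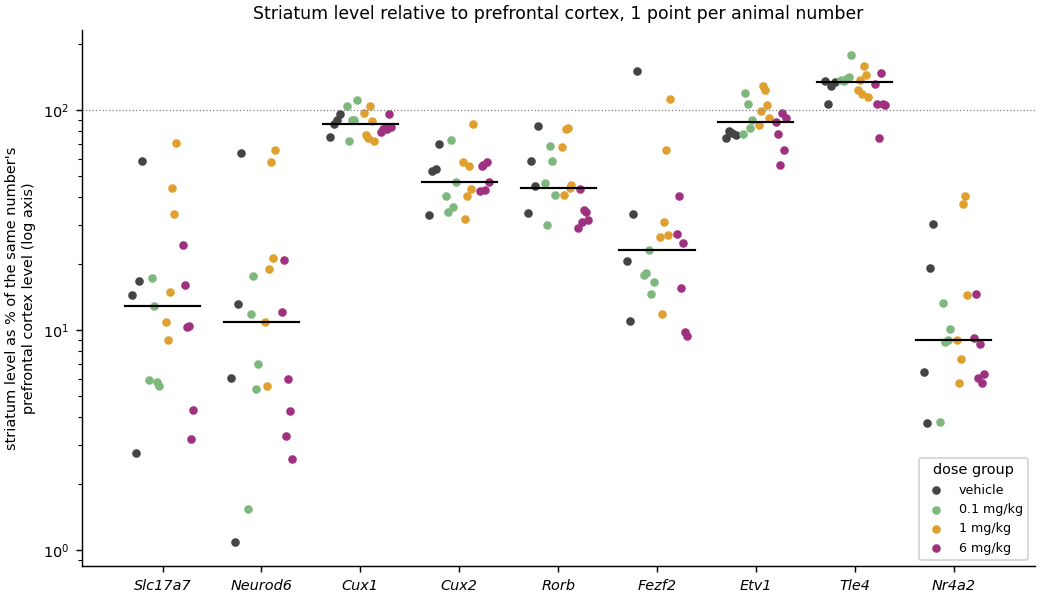
Striatum level as a percentage of the PFC level of the same animal number for each of the 9 markers (log y axis, dotted line at 100%); each point is 1 of 21 numbers, coloured by dose group, and each bar is the median. Medians run from 8.97% for Nr4a2 to 133.7% for Tle4, and the points of Slc17a7, Neurod6, Fezf2 and Nr4a2 spread far more widely than those of Cux1.

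Spread between libraries of a dose group was the feature that set the members apart from each other in striatum. The within-group SD of log2 CPM was 1.35 for Neurod6, 1.21 for Slc17a7, 0.99 for Fezf2 and 0.74 for Nr4a2 there, with a median of 0.24 over all tested striatum genes. These SDs exceeded those of 99.8%, 99.7%, 99.2% and 96.9% of the tested genes. Cux1 lay at the other end, at 0.09, above only 1.77% of tested genes. Cux2 at 0.33 and Rorb at 0.29 lay above 72.0% and 64.9% of tested genes, and Tle4 at 0.20 and Etv1 at 0.19 above 36.5% and 31.2%. Without the 3 libraries that stand apart, the SD of Fezf2 was 0.54, while Neurod6 (1.02), Slc17a7 (1.02) and Nr4a2 (0.67) stayed wide. In the PFC, the 9 SDs ran from 0.16 (Cux1) to 0.36 (Nr4a2), around a median of 0.22 over all tested PFC genes.

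The wide spread of Slc17a7 and Neurod6 was not tied to 1 dose group. At 0.1 mg/kg the striatum libraries of animals 23, 24, 25, 28 and 29 held 101, 305, 178, 105 and 104 CPM of Slc17a7 and 1.11, 7.39, 7.10, 3.26 and 3.77 CPM of Neurod6. At 1 mg/kg Slc17a7 ran from 162 to 1324 CPM with a median of 349, and Neurod6 from 3.13 to 41.3 with a median of 11.4. Without animals 46 and 50 the highest values at 1 mg/kg were 465.8 and 11.97 CPM and the medians 202 and 8.08 CPM. At 6 mg/kg Slc17a7 ran from 40.8 to 361 CPM with a median of 163, and Neurod6 from 1.37 to 7.09 with a median of 2.98. Every dose group overlapped the vehicle group in both genes. The lowest Neurod6 library, animal 4 in vehicle, rested on 7 counts.

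**Figure D3:**
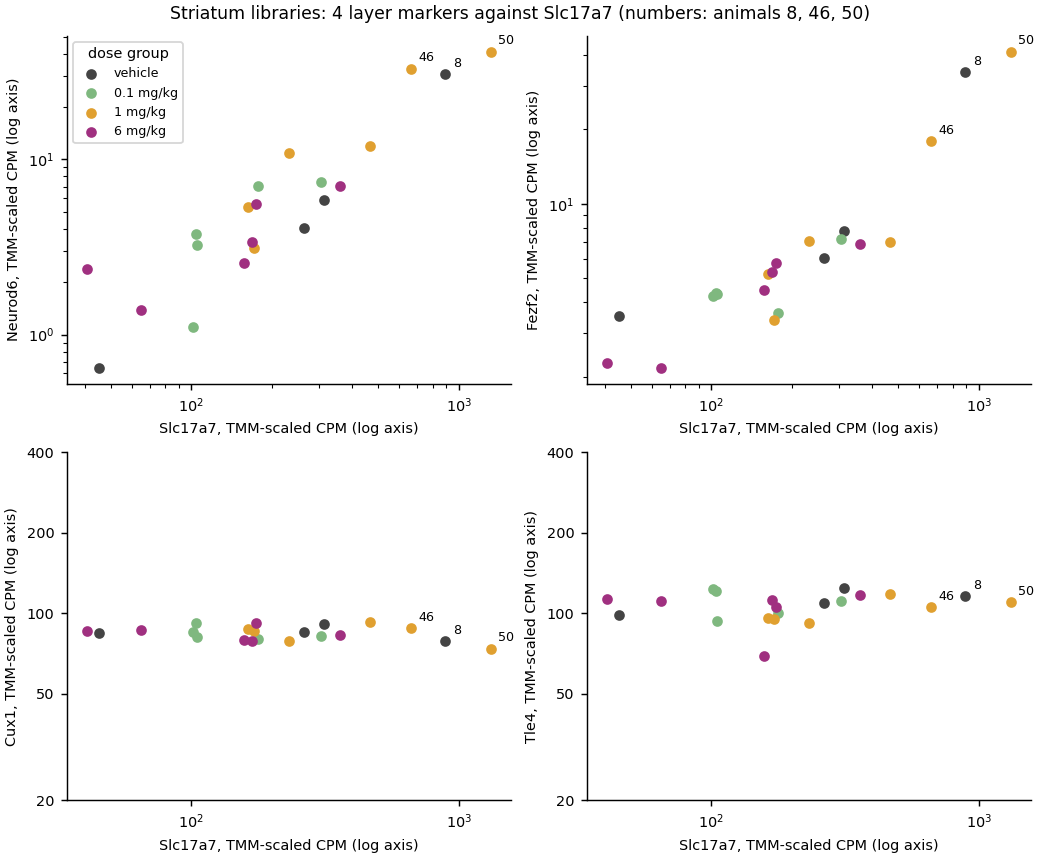
Neurod6, Fezf2, Cux1 and Tle4 against Slc17a7 in the 21 striatum libraries, all as TMM-scaled CPM on log axes, with points coloured by dose group and the libraries of animals 8, 46 and 50 numbered. Neurod6 and Fezf2 climb with Slc17a7 over its range of 40.8 to 1324 CPM, whereas Cux1 (73.7 to 92.6 CPM) and Tle4 (69.3 to 124 CPM) stay level.

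Levels of 4 of the markers varied together between libraries. Correlations were taken over the 21 libraries of a region, on log2 CPM after subtraction of the dose-group mean, for all 36 pairs of members, with permutation p-values of 100000 draws adjusted over the 36. In striatum 6 pairs passed, all positive and all also by rank, and they were the 6 pairs among Slc17a7, Neurod6, Fezf2 and Nr4a2. How often pairs of other tested genes would pass was not counted, so this number has no background. Pearson's r was 0.896 for Slc17a7 with Neurod6 (rho 0.922, permutation p 1e-05 and adjusted 0.00012 for both). It was 0.889 for Slc17a7 with Fezf2 (rho 0.888) and 0.876 for Neurod6 with Fezf2 (rho 0.853), with the same permutation p, the smallest that the draws can give. Pairs with Nr4a2 were looser: r was 0.728 with Neurod6 (rho 0.721, adjusted permutation p 0.00234), 0.685 with Slc17a7 (rho 0.705, adjusted permutation p 0.00504) and 0.614 with Fezf2 (rho 0.632, adjusted permutation p 0.0187). Leaving out the 2 libraries farthest from the median of the first gene gave r of 0.904, 0.895 and 0.825 for the 3 tighter pairs, and 0.583 to 0.639 for those with Nr4a2. Without animals 8, 46 and 50, r was 0.826, 0.864 and 0.755 for the tighter pairs, and 5 of the 6 pairs passed; Fezf2 with Nr4a2 did not (r 0.534, adjusted permutation p 0.107). By rank 3 of the 6 then passed, and the 3 with Nr4a2 did not (adjusted permutation p 0.0536 to 0.173).

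Cux1, Cux2, Rorb, Etv1 and Tle4 formed no passing pair in striatum with all 21 libraries, with each other or with the 4 genes above. Their r with the 4 ran from -0.47 (Cux1 with Fezf2) to 0.53 (Cux2 with Fezf2, adjusted permutation p 0.0700), and without animals 8, 46 and 50 these pairs were at 0.02 and -0.22. Tle4 with Nr4a2 came nearest to passing by rank (r 0.410, rho 0.553, adjusted permutation p of rho 0.0516), and its r was 0.650 without the 2 farthest libraries. Without animals 8, 46 and 50, Cux1 with Tle4 passed by rank (rho 0.653, adjusted permutation p 0.0391) and not by r (0.589, adjusted permutation p 0.0531). Libraries share depth and composition across all genes, so these coefficients describe joint variation between punches.

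In the PFC 7 of 36 pairs passed by Pearson's r, all positive, and 1 of them also by rank: Neurod6 with Fezf2 (r 0.763, rho 0.727, adjusted permutation p 0.0018 and 0.009). Here too, the share of other gene pairs that would pass was not counted. Other passing pairs were Neurod6 with Nr4a2 (r 0.747), Cux1 with Rorb (0.669), Slc17a7 with Fezf2 (0.651), Slc17a7 with Neurod6 (0.612), Cux1 with Cux2 (0.589) and Slc17a7 with Nr4a2 (0.580), with adjusted permutation p from 0.00396 to 0.0293. Those with Slc17a7 rest on few libraries: without the 2 farthest, r was 0.389, 0.235 and 0.291. Without the single library of animal 53, 4 pairs passed. They were Cux1 with Rorb (r 0.786), Etv1 with Nr4a2 (0.710), Neurod6 with Fezf2 (0.698) and Slc17a7 with Cux2 (0.621), so 2 of the 7 kept their call. Cux1 with Cux2 was nearly unmoved at r 0.584 (adjusted permutation p 0.0516).

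**Figure D4:**
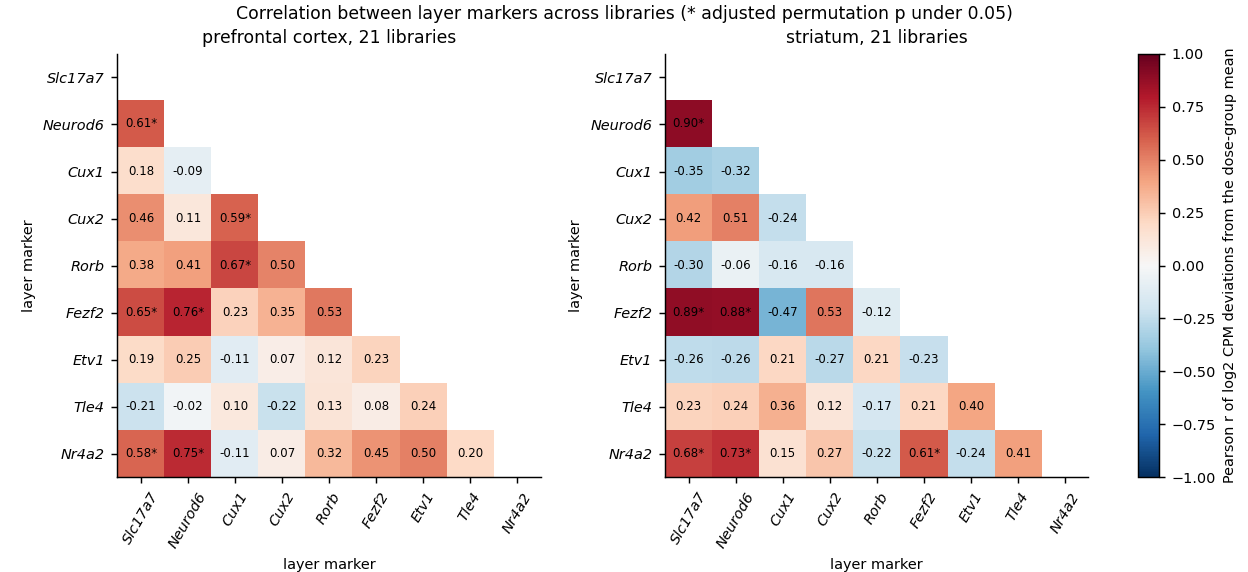
Pearson's r between each pair of the 9 markers across 21 PFC libraries (left) and 21 striatum libraries (right), computed on log2 CPM minus the dose-group mean; colour gives r and an asterisk marks an adjusted permutation p under 0.05. In striatum the marked cells are the 6 pairs among Slc17a7, Neurod6, Fezf2 and Nr4a2, with r from 0.614 to 0.896, and in PFC the 7 marked cells include Cux1 with Cux2 and with Rorb.

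The genes whose library-to-library pattern was most like that of a member, by r over the 21 libraries among genes with a mean of at least 5 CPM (12181 in striatum and 11905 in PFC), are given as a description. In striatum, Neurod2, a close relative of Neurod6, followed Slc17a7 (r 0.964), with Epop next (0.946). Vxn (0.947) and Smim43 (0.929) followed Neurod6, Hs3st2 (0.946) and Nptx1 (0.943) followed Fezf2, and Cx3cl1 (0.835) and Chfr (0.825) followed Nr4a2. The other members had other companions: Atp2b2 (0.950) and Itpr1 (0.927) for Tle4, Mysm1 (0.918) and Asah2 (0.880) for Etv1, Spred3 (0.869) and Ncs1 (0.853) for Cux2, Cast (0.815) and Ndufb2 (0.808) for Rorb, and Zfp935 (0.795) and Mtmr7 (0.759) for Cux1. In PFC, Slc17a7 was followed by Lingo1 (0.914) and Mpped1 (0.896), Neurod6 by Vxn (0.848) and Tpd52 (0.844), and Fezf2 by Gfra2 (0.775) and then Neurod6 itself. Nr4a2 was followed by Pls3 (0.895) and Vxn (0.865), so Vxn was among the closest to Neurod6 in both regions. Rassf3 (0.915) and Osbpl1a (0.873) followed Rorb, Pcdh19 (0.896) and Cdh2 (0.865) followed Etv1, Rims3 (0.847) and Cyth3 (0.775) followed Cux1, Mgll (0.818) and Shank1 (0.793) followed Cux2, and Tctn3 (0.820) and Pcdhgb6 (0.773) followed Tle4.

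The study's question was how PCB dose relates to expression. In the PFC 0 of the 9 markers passed at 6, 1 or 0.1 mg/kg against vehicle by edgeR, and 0% of the 14838 genes tested passed in each of these contrasts. At an unadjusted p under 0.05 there were 1376, 1230 and 954 genes, and DESeq2 passed 27, 0 and 1 genes, none of them a member. The member with the lowest unadjusted p was Slc17a7 at 6 mg/kg. Its 6 libraries there ran from 1090.4 to 1608 CPM with a median of 1492, against 1519.8, 1642, 1829 and 1883 CPM in vehicle, so the groups overlapped. The log2 fold change was -0.29 (SE 0.107, unadjusted p 0.0125, edgeR adjusted p 0.423), and -0.22 without animal 53 (edgeR adjusted p 0.449). Striatal projection neuron markers summed to 1947 to 3759 CPM at 6 mg/kg and 1505 to 3923 CPM in vehicle PFC. In this contrast 0 of these 12 markers and 0 of the 7 oligodendrocyte markers passed by edgeR, and all 12 and all 7 had positive log2 fold changes (median 0.24 in each list); 0 and 2 had an unadjusted p under 0.05. All 7 immediate early genes listed, which neuronal activity induces, were negative (median -0.53, 0 passing, 2 at an unadjusted p under 0.05). The 2 blood genes tested were negative too (median -2.17, 0 passing, 2 at an unadjusted p under 0.05). The part of these lists in the Slc17a7 value was not tested.

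Tle4 was the other PFC marker to reach an unadjusted p under 0.05 against vehicle, at 0.1 mg/kg, with a log2 fold change of -0.23 (unadjusted p 0.0472, edgeR adjusted p 0.742). At 1 mg/kg no member did. Tle4 had the lowest p there as well, at -0.18 (unadjusted p 0.0963, edgeR adjusted p 0.593). The remaining log2 fold changes of the 9 in these 3 contrasts lay between -0.31 and 0.27.

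The highest dose was also set against the lowest, without the vehicle libraries. In this PFC contrast 0 of the 9 passed by edgeR, and 0.108% of all genes did (1503 at an unadjusted p under 0.05, 116 passing by DESeq2). Tle4 was higher at 6 than at 0.1 mg/kg by 0.31 on the log2 scale (SE 0.101, unadjusted p 0.00449, edgeR adjusted p 0.251), and Slc17a7 was at -0.28 (SE 0.100, unadjusted p 0.0091, edgeR adjusted p 0.308). All 7 immediate early genes listed, which neuronal activity induces, were lower in the same contrast at an unadjusted p under 0.05 (1 of 7 passed, median -0.81), and their part in these values was not tested. Over dose rank, 0 of the 9 had a slope that passed by edgeR, against 0.0202% of all genes (1452 at an unadjusted p under 0.05, 65 passing by DESeq2). DESeq2 passed no member in either comparison. Slc17a7 had a slope of -0.10 per rank (unadjusted p 0.00684, edgeR adjusted p 0.294) and Rorb of 0.10 (unadjusted p 0.0414, edgeR adjusted p 0.493). Neither passed over all genes tested.

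In the striatum, too, 0 of the 9 markers passed at 6, 1 or 0.1 mg/kg against vehicle, and 0% of the 15118 genes tested passed in each. At an unadjusted p under 0.05 there were 2377, 1113 and 383 genes, and DESeq2 passed 26, 6 and 1 genes, none of them a member. At 6 mg/kg all 9 log2 fold changes were below 0, from -1.51 to -0.01, with a median of -0.32, against a median of 0.01 over all genes. Without animals 8, 46 and 50 the median of the 9 was -0.08 and 8 were negative. The 4 genes that vary together had the lowest values, and as they share the same vehicle libraries their signs are not independent.

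Fezf2 had a log2 fold change of -1.51 at 6 mg/kg (SE 0.666, unadjusted p 0.0357, edgeR adjusted p 0.290). Its vehicle libraries held 6.02, 3.51, 7.78 and 34.0 CPM, and the 6 libraries at 6 mg/kg 2.18 to 6.88 CPM with a median of 4.89, so only animal 8 lay clear of the dosed range by a wide margin. Without animals 8, 46 and 50 the value was -0.36 (edgeR adjusted p 0.626). Slc17a7 and Neurod6, at -1.22 and -1.45 with all libraries, were then at -0.36 and 0.09.

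Nr4a2 had a log2 fold change of -1.09 at 6 mg/kg (SE 0.452, unadjusted p 0.0252, edgeR adjusted p 0.262), and -0.67 without the 3 libraries (edgeR adjusted p 0.501). Its vehicle libraries held 7.96, 5.09, 21.4 and 27.3 CPM against 6.05 to 8.70 CPM at 6 mg/kg (median 7.08). The dosed libraries were closely grouped, and 2 of the 4 vehicle libraries lay within or below their range. Nr4a2 is also known as a gene induced by neuronal activity. The 7 neuronal immediate early genes listed (Fos, Fosb, Arc, Egr1, Junb, Npas4 and Nr4a1) summed to 624 to 1201 CPM in vehicle and 424 to 665 CPM at 6 mg/kg in striatum. Of these, 0 passed and 6 of 7 had an unadjusted p under 0.05, all lower. Oligodendrocyte markers summed to 4464 to 6755 CPM in vehicle and 6715 to 9233 CPM at 6 mg/kg. The part of either in the Nr4a2 or Fezf2 value was not tested.

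Cux1 in striatum was the most closely bounded of the markers: its log2 fold change at 6 mg/kg was -0.01 with a 95% interval of -0.16 to 0.14, with means of 84.96 ± 5.19 CPM (SD, n = 4 vehicle) and 84.2 ± 4.77 CPM (SD, n = 6 dosed). For Slc17a7 the interval was -2.64 to 0.19, and without animals 8, 46 and 50 it was -1.62 to 0.91, so these data leave both a decrease and an increase possible. At 1 mg/kg Etv1 was at 0.38 on the log2 scale (SE 0.118, unadjusted p 0.00357, edgeR adjusted p 0.675). Its vehicle libraries held 44.9, 51.4, 39.3 and 41.4 CPM, all below the 6 libraries at 1 mg/kg (52.5 to 64.5 CPM, median 56.7). In this contrast all 12 striatal projection neuron markers were negative (median -0.27, 3 at an unadjusted p under 0.05). All 7 immediate early genes were negative as well (median -0.61, 3 at an unadjusted p under 0.05), and all 7 oligodendrocyte markers positive (median 0.29). The part of these lists in the Etv1 value was not tested. At 0.1 mg/kg no member had an unadjusted p under 0.05; the lowest was that of Fezf2 (log2 fold change -1.43, unadjusted p 0.0534, edgeR adjusted p 1.00). Without the 3 libraries that value was -0.28 (unadjusted p 0.425, edgeR adjusted p 1.00).

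Etv1 also had the lowest p of the 9 between 6 and 0.1 mg/kg in striatum, at -0.24 (SE 0.110, unadjusted p 0.0399, edgeR adjusted p 0.200). Here 0 of the 9 passed by edgeR or DESeq2, while 2.91% of all genes did by edgeR (3375, or 22.3%, at an unadjusted p under 0.05, 1098 passing by DESeq2). All 7 immediate early genes were negative in this contrast (median -0.78, 6 at an unadjusted p under 0.05). All 7 oligodendrocyte markers were positive (median 0.23, 2 at an unadjusted p under 0.05). The part of either list in the Etv1 value was not tested. The Etv1 mean was 44.2 ± 5.32 CPM in the vehicle group (SD, n = 4) and 43.2 ± 6.84 in the 6 mg/kg group (n = 6), below those of the groups between them, 50.95 ± 5.66 (0.1 mg/kg, n = 5) and 57.7 ± 5.52 (1 mg/kg, n = 6). Over dose rank, 0 of the 9 striatum slopes passed and 0% of all genes did, with 1973 genes at an unadjusted p under 0.05 and 14 passing by DESeq2. The lowest unadjusted p of a member was 0.254, for Nr4a2, with a slope of -0.21 on the log2 scale per rank, or -0.14 without the 3 libraries.

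Whether 6 mg/kg acted differently in the 2 regions was tested as an interaction over 15055 genes. By edgeR 0 of the 9 passed and 0% of all genes did, with 967 genes at an unadjusted p under 0.05 and 0 passing by DESeq2. Rorb had the lowest p of the 9, with an interaction of -0.61 on the log2 scale (SE 0.215, unadjusted p 0.00959, edgeR adjusted p 0.747). Its change at 6 mg/kg was 0.27 in PFC and -0.32 in striatum. Vehicle animal 8 had the lowest PFC value of Rorb (24.02 CPM), and without animals 8, 46 and 50 the interaction was -0.41 (edgeR adjusted p 0.804). Interactions of Neurod6 (-1.45) and Fezf2 (-1.27) were larger in size with SEs of 0.832 and 0.619, and without those animals they were 0.15 and -0.05.

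**Figure D5:**
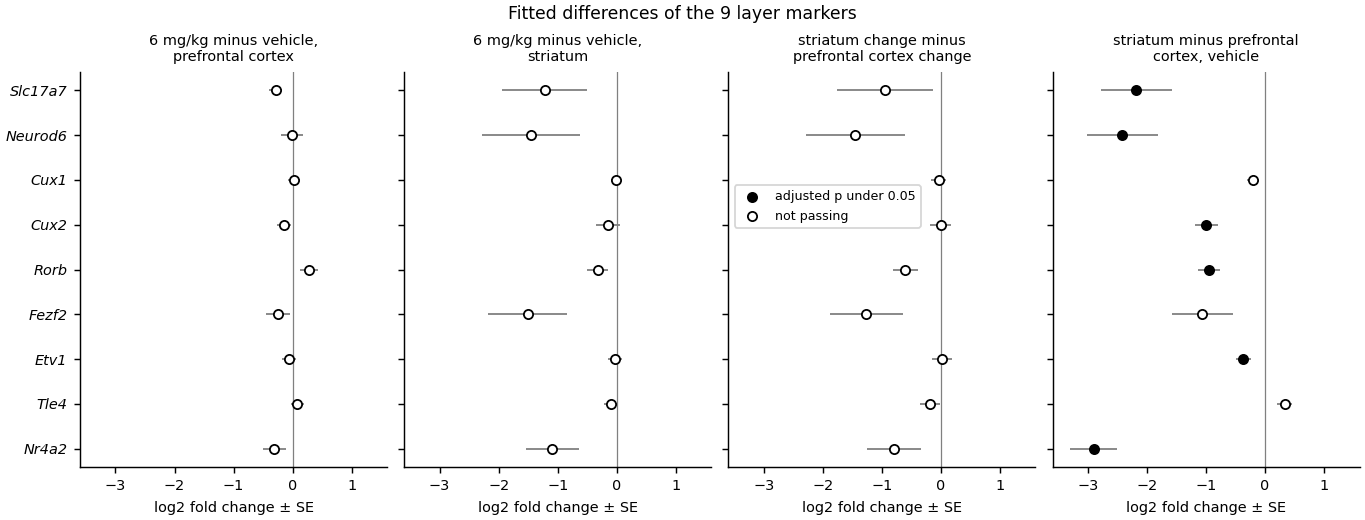
Log2 fold changes (points) with SE (bars) of the 9 markers for 6 mg/kg minus vehicle in PFC and in striatum, for the striatum change minus the PFC change, and for striatum minus PFC in vehicle mice; filled points have an edgeR adjusted p under 0.05. All dose points are open, with the widest bars for Slc17a7, Neurod6, Fezf2 and Nr4a2 in striatum, and 6 points are filled in the regional comparison, from -0.37 (Etv1) to -2.91 (Nr4a2).

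A further 43 genes known to mark cortical layers or pyramidal cells were listed, and all 43 were tested. In the regional comparison 18 passed as lower in striatum and 7 as higher, with a median log2 difference of -0.44, and 6 were at least 4-fold lower. These counts stand against 11.1%, 10.5% and 0.603% of all genes tested. Of 11 pan-pyramidal genes, 7 passed as lower and 0 as higher; the smallest p-values were those of Nptxr, a synaptic pentraxin receptor (log2 difference -1.92), and Neurod1, a relative of Neurod6 (-2.83). Of 11 markers of layer 6 and the subplate, 6 passed as lower, led by Sox5 (-1.30) and Tbr1 (-2.06), both transcription factors of deep layer fate, and 2 as higher. Of 13 upper layer markers, 5 passed as lower, among them Rasgrf2 (-0.65), and 2 as higher. Of 8 layer 5 markers, 0 passed as lower and 3 as higher, led by Pou3f1 (0.96) and Crym (1.15). Which cells carry the RNA of the listed genes in striatum was not tested, so higher values do not show layer 5 cells there. The lists were not tested against each other, and the layer 5 members Etv1 and Fezf2 had negative differences. Without animals 8, 46 and 50, 20 of the 43 passed as lower and 8 as higher.

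In the dose contrasts, slopes and interaction, 0 of the 43 passed in either region, except that 1 was lower in striatum at 6 than at 0.1 mg/kg. This was Inhba, a subunit of activin, at -0.97 on the log2 scale (SE 0.237, edgeR adjusted p 0.0355), in a contrast where 2.91% of all genes passed. In that contrast all 7 immediate early genes were negative (median -0.78, 6 at an unadjusted p under 0.05) and all 7 oligodendrocyte markers positive (2 at an unadjusted p under 0.05), and their part in the Inhba value was not tested. For 6 mg/kg against vehicle the medians of the 43 were 0.00 in PFC and -0.19 in striatum, where 31 of the 43 were negative. Over all genes tested these medians were 0.00 and 0.01. Without the 3 striatum libraries the median of the 43 there was -0.06 and 26 were negative. All 43 share the same vehicle libraries, so their signs are not independent.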

How the data were processed

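For each tissue the authors deposited raw read counts as 1 gene table keyed by Entrez identifier; symbols were taken from RefSeq. Per the submitters' processing notes, FastQC and HISAT2 were used with the mm10 build; their versions, the counter and its strand setting and annotation are not given in the sources used here. Per the labels' protocols, messenger RNA was enriched by poly(A) capture or by rRNA removal, without saying which. Listed genes had at least 10 counts in total over a table's libraries. Columns were matched to samples by title and grouped by treatment label.

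The fits used R 4.3.3 and edgeR 4.0.16 (TMM scaling, filterByExpr, all dose groups of a region in 1 robust quasi-likelihood fit; all 42 brain libraries for striatum against PFC; vehicle and 6 mg/kg libraries for the interaction), with Benjamini-Hochberg adjustment over all genes tested. Each SE was derived from the fold change and its F statistic, and 95% intervals from the SE. Levels are CPM on 1 TMM scale over the brain libraries; length scaling used the longest GENCODE transcript, and log2 CPM a prior count of 2. The fits were tested on simulated counts. Libraries of a group were compared by chi-square over genes with at least 20 counts. The labels do not state that libraries of a group are separate animals, so p-values measure only the spread between these samples, which may be technical. Genes on other strands that overlap a member cannot be told apart without strand.

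The members and lists were chosen with earlier results of these data known. All 9 members are described; in dose contrasts those with an unadjusted p under 0.05 are named, or else the one with the lowest, and from the other lists at most 2 per contrast; 1 gene that this rule names is not reported here. Alternatives were DESeq2 1.42.0, median-ratio size factors, no low-count filter or a mean of 10 counts, 1 surrogate variable from sva 3.50.0, smaller fits, leaving out each replicate, blocking on the number in the titles and a slope over mg/kg. The removal of libraries that stand apart was added after seeing the data.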

Additional observations from a re-analysis of the deposited data

Results flagged for a closer look

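In 72 sets of 4 to 6 libraries (9 markers by region and dose group), 4 had a highest or lowest library with a gap to its nearest neighbour that was large against the range of the set by Dixon's criterion. Chance gives this in about 5% of sets, which is 3.6 of 72. The markers concerned were Cux1, Fezf2 and Tle4. Cux1 in PFC at 0.1 mg/kg was at 113.6 CPM in animal 24, and the nearest library was at 90.09 CPM. Fezf2 in vehicle striatum was at 34.04 CPM in animal 8, one of the libraries that stand apart, and the nearest was at 7.776 CPM. Fezf2 in striatum at 0.1 mg/kg was at 7.178 CPM in animal 24, and the nearest was at 4.345 CPM. Tle4 in striatum at 6 mg/kg was at 69.33 CPM in animal 54, below the nearest at 105.2 CPM.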

How the results depend on the processing

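The count of markers passing was 0 in every dose contrast, slope and interaction under every alternative run. For striatum against PFC in vehicle, 4 to 8 of 9 passed over all alternatives, with 4 to 6 on leaving out 1 vehicle animal, 7 with DESeq2 and 5 in the fit of the 8 vehicle libraries alone. With the animal number as a replicate block 8 passed, as Fezf2 (-1.52, edgeR adjusted p 0.0336) and Tle4 (0.33, edgeR adjusted p 0.0337) joined, and 0 passed in the interaction. The regions share these numbers only in the titles. The correlation of same-numbered libraries across genes had a median of 0.116 and a range of -0.0829 to 0.204, and 12 of 21 were over 0.1. Sought only within its dose group of 4 to 6 libraries, the best match in striatum had the same number for 12 of 21 PFC libraries. Unrelated numbers would give about 1 such match per dose group. No test of the pairing was run. Neurod6 at 6 mg/kg in striatum (-1.45) was at 0.0903 without the 3 libraries that stand apart and ran from -1.84 to 0.0911 over single removals, with the positive value on leaving out vehicle animal 8. Its interaction (-1.45) was at 0.15 without the 3 and ran from -1.88 to 0.15. Cux1 at 6 mg/kg in striatum (-0.01) ran from -0.0476 to 0.0234 over single removals. None of these 3 passed in any setting, and the direction of the other values named in the dose and regional comparisons was kept in each alternative run. The count of correlated pairs moved from 7 to 4 in PFC and from 6 to 3 in striatum without the vehicle libraries, which leaves 17 libraries, and to 4 in PFC without animal 53. Depth limits Neurod6 and Fezf2 in striatum, whose smallest counts were 7 and 19.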

Other observations

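The liver of the same study gives the levels of these genes outside the brain, in 20 libraries. Neurod6 and Fezf2 are not listed there. Slc17a7, Rorb, Etv1 and Nr4a2 had medians under 1 CPM, at 0.329, 0, 0.948 and 0.833 CPM. Cux1 had a median of 13.98 CPM and Tle4 of 5.96 CPM. Cux2 stood out with a median of 71.9 CPM and a range of 8.65 to 184.6 CPM, a level of the same order as its median of 97.7 CPM in the PFC, where scaling was done separately. Cux2 is known as a transcription factor of the female liver in mice, as well as of upper cortical layers. Its liver libraries ran from 20.1 to 77.8 CPM in vehicle, 36.5 to 83.5 at 0.1 mg/kg, 8.65 to 149 at 1 mg/kg and 44.995 to 184.6 at 6 mg/kg, so all dose groups overlapped. Tle4 in liver ran from 6.86 to 8.43 CPM in vehicle, 6.94 to 7.64 at 0.1 mg/kg, 3.49 to 7.59 at 1 mg/kg and 2.17 to 5.86 at 6 mg/kg. These ranges were picked out after the values were seen. No test was run, and how many liver genes have ranges like these was not counted.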
